A study of Mus musculus with 4 samples.

Results

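Ribosome biogenesis and Myc genes are 31 factors that make, modify or assemble ribosomes together with the transcription factors Myc and Mycn, 33 genes of the 18193 that the arrays name. They were followed in whole mouse embryos at embryonic day 9.0 (E9.0), in 2 embryos labelled wt and 2 labelled Gcnf-/-, on 1 Affymetrix mouse whole-genome array each. In Gcnf-/- embryos both copies of the gene for an orphan nuclear receptor, now named Nr6a1, are mutant in every cell. No other allele or agent is named for either genotype. The mutant line is an earlier, established one. The methods give a collection window of E9.0 to E9.5, so that the embryos of the groups may differ in age within it. Signals are on the log2 scale of the RMA procedure (robust multi-array average), and every difference below is Gcnf-/- minus wt on that scale. A signal that differs in RNA of a whole embryo can come from fewer cells of a type or from less RNA per cell, which cannot be told apart here.

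The 33 genes were chosen from these same arrays, because Ncl read lower in Gcnf-/- embryos while the control probe sets for 18S ribosomal RNA read higher. The comparison of genotypes is therefore a description for them, without a test. Every probe set that the platform annotation gives to 1 of these symbols alone was taken, which made 67 probe sets for 33 of 33 genes, and the probe set with the highest mean stood for its gene. All 33 genes had a probe set brighter than the median of all probe sets, a log2 signal of 6.84.

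Ribosomes are built in the nucleolus, where RNA polymerase I transcribes the long precursor of 18S, 5.8S and 28S ribosomal RNA. Small nucleolar ribonucleoproteins (snoRNPs) guide the chemical modification of that precursor, the small subunit processome folds and cuts its 18S part, and other factors assemble the large subunit around the remainder. Myc and its relative Mycn dimerise with Max, bind the E-box CACGTG near the start of many of these genes and are known to raise their transcription in growing cells. Early embryos grow fast, and mutations of ribosome biogenesis genes are known to disturb the neural crest, as those of the human counterpart of Tcof1 do in Treacher Collins syndrome.

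RefSeq promoters (assembly GRCm38.p6, 250 bases before to 50 bases after the first base of a gene) were at hand for 26 of the 33 genes. The E-box CACGTG, which reads the same on either strand, was found in the promoters of 6 of these 26 genes (23.1%) and in those of 8.91% of 17492 protein-coding genes. The 7 sites are shown because they are the letters that Myc proteins are known to bind, each with 20 bases before and 4 after the E-box, on the strand of the gene and with the E-box in capitals.

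Rrn3, chr16:13780464-13780493, plus strand: cacctcctgagcgccaaggtCACGTGcaca
Rrn3, chr16:13780631-13780660, plus strand: tgcgatccttacgctctgctCACGTGggcc
Nop2, chr6:125131803-125131832, plus strand: tgaggggcgtgtccctggatCACGTGtgtt
Utp20, chr10:88826768-88826797, minus strand: gcgcccagcggcactaactaCACGTGagga
Mybbp1a, chr11:72441347-72441376, plus strand: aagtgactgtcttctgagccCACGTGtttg
Pes1, chr11:3963957-3963986, plus strand: cttcagggccctaggcagggCACGTGcggg
Wdr43, chr17:71616212-71616241, plus strand: tgcgcctgcgcccgggcgaaCACGTGgctg

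Counted from the first base of the gene as 0, the E-boxes of Rrn3 begin at -215 and -48 and that of Nop2 at -60, all before the start. Those of Pes1, Wdr43, Utp20 and Mybbp1a begin at 2, 17, 37 and 40, inside the transcript. Rrn3 alone among the 26 genes held a pair of E-boxes, and its 250 bases before the start (chr16:13780449-13780698, plus strand) are given whole to show their spacing:

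Rrn3: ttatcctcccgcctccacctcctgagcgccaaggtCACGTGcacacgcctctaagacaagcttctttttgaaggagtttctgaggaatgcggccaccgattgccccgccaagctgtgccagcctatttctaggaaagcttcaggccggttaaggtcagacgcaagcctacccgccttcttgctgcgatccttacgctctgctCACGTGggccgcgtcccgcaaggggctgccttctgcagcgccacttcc

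The E-box variant CACGCG, searched on both strands with overlapping matches counted, shared no base with a canonical site in these genes. It was present in 8 of 26 genes (30.8%), namely Ddx21, Mybbp1a, Nhp2, Noc2l, Nolc1, Nop16, Pes1 and Ubtf, and in 13.7% of protein-coding genes. TCAAGGTCA, the extended half-site that orphan receptors of this kind can bind, was found in 0 of 26 and in 0.377% of protein-coding genes. The direct repeat with no spacer that Nr6a1 is known to bind was found in 0 of 26 and in 1 protein-coding gene. Matches to letters are no measure of binding. The GC content of the promoters had a median of 57.5% over the 26 genes and 56.3% over protein-coding genes.

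The arrays of a genotype correlated with r = 0.9973 (wt) and 0.9975 (Gcnf-/-) across probe sets, and those of different genotype with 0.9931 to 0.9952. Wt replicate 1 was the only female by its Xist signal (13.11, against 6.44 to 6.68) and stood apart in the poly-A spikes that are added to the RNA (9.61, against 10.30 to 10.38). All 5 probe sets of Nr6a1 had a higher mean in Gcnf-/- than in wt embryos, by 0.05 to 0.56. That at 0.05 was dim (4.06 and 3.89 in wt, 4.03 and 4.03 in Gcnf-/- embryos), and its genotypes overlapped. Since the sources do not say which exons are missing, the probe sets of Nr6a1 check no label. Of 20 markers of early embryo tissues 18 were measured, and they differed in both directions (8 below wt and 10 above, from -0.65 to 1.46), as described after the members. In limma, 22 genes were lower and 77 higher at an adjusted p of 0.05 and a change of at least 2-fold, which is 0.121% and 0.423% of all genes. At the adjusted p alone 68 were lower (0.374%) and 186 higher (1.02%).

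The 18S control probe sets, which helped to choose these genes, averaged 9.45 and 9.99 in the wt embryos and 10.83 and 10.74 in the Gcnf-/- embryos. Both Gcnf-/- embryos were above both wt embryos, and the wt embryos lay 0.54 apart. The difference was 1.06, with 1.13, 1.33 and 0.72 for the 3′, 5′ and middle probe sets, and it was 0.79 without wt replicate 1 and 1.33 without wt replicate 2. The control probe sets for beta-actin differed by 0.33 (3′) and 0.42 (5′), also with the lowest value in wt replicate 1, and those for Gapdh by 0.03. The target was prepared by amplification of polyadenylated RNA, so that the 18S signal cannot be read as the amount of ribosomal RNA in an embryo.

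Most of the 33 genes read slightly lower in Gcnf-/- embryos. Of the 33, 31 lay below wt, with a median difference of -0.25 and a range from -0.72 (Ddx21) to 0.25 (Mycn), while the median over all 18193 genes was -0.01 and 52.8% of them lay below wt. In the same 31 genes both Gcnf-/- embryos were below both wt embryos (93.9%), an order seen in 30.4% of all genes and in 36.1% of the 11638 genes above the brightness limit. The reverse order held for 1 member, Mycn, and for 26.2% of all genes, and Nop58 overlapped. These counts describe the choice and nothing was read from them. The differences were small: 23 members were at -0.20 or lower, as 13.9% of all genes were, and 0 reached a 2-fold change. Embryos of the same genotype differed by a median of 0.07 (wt) and 0.05 (Gcnf-/-) over the members.

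**Figure D1:**
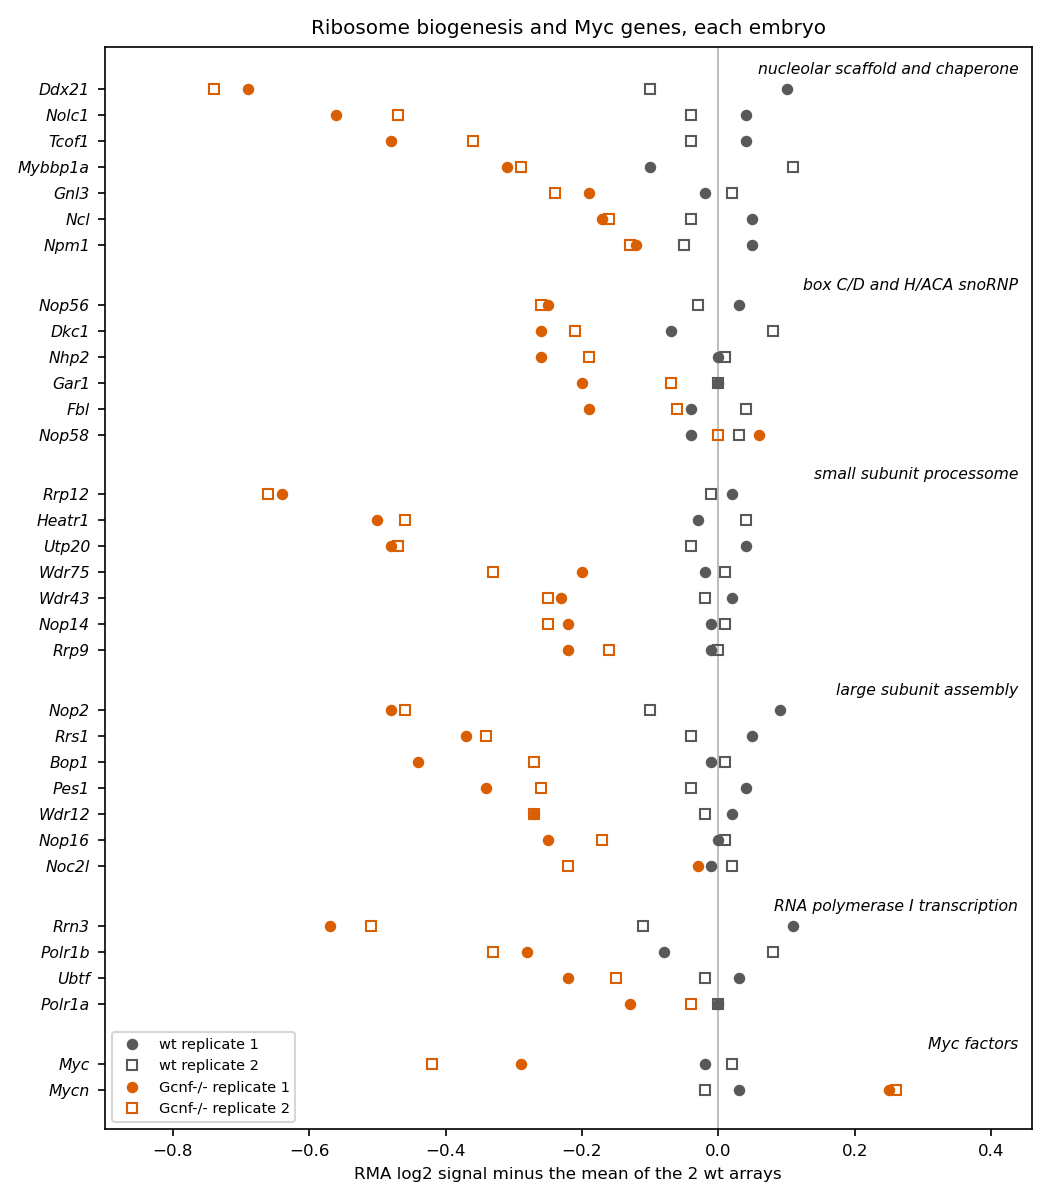
Signal of each embryo minus the mean of the 2 wt embryos (horizontal axis, RMA log2 units) for the 33 genes, ordered by role and then by difference. Filled circles mark replicate 1 and open squares replicate 2 of wt (grey) and Gcnf-/- (orange). The orange points lie left of the grey ones in 31 genes, overlap them in Nop58 and lie to their right in Mycn.

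Genes for nucleolar scaffolds and chaperones, which hold the nucleolus together and carry precursor particles, lay below wt in 7 of 7 cases, with a median difference of -0.30. Nucleolin (Ncl), which binds the ribosomal RNA precursor, had log2 signals of 14.15 and 14.06 in wt and 13.93 and 13.94 in Gcnf-/- embryos. Its genotypes did not overlap, but the difference of -0.17 ± 0.07 (moderated SE, n = 2 per genotype) is a 1.12-fold lower signal. Ddx21, a DEAD-box RNA helicase of ribosomal RNA transcription and processing, read 11.39 and 11.19 in wt and 10.60 and 10.55 in Gcnf-/- embryos. At -0.72 ± 0.09, or 1.65-fold lower, it had the widest difference of the 33 genes, and its other probe set gave the same value (-0.72). Nolc1, a chaperone of snoRNPs, stood at 11.67 and 11.59 against 11.07 and 11.16 (-0.52 ± 0.08), and its other probe sets at -0.55 and -0.37. Tcof1, whose product treacle works with RNA polymerase I, stood at 9.39 and 9.31 in wt and at 8.87 and 8.99 in Gcnf-/- embryos. It was 1.34-fold lower, with -0.42 from the brightest probe set and -0.50 and -0.48 from the others. Mybbp1a, a Myb-binding protein of the nucleolus, differed by -0.30, the GTP-binding protein nucleostemin (Gnl3) by -0.22 and the histone chaperone nucleophosmin (Npm1) by -0.13.

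Genes for the snoRNPs had the median nearest to wt of the groups of nucleolar genes (-0.18), with 5 of 6 below wt. Fibrillarin (Fbl), the methyltransferase of the box C/D particles, read 13.68 and 13.76 in wt and 13.53 and 13.66 in Gcnf-/- embryos, so that the groups were separated by less than the gap between the Gcnf-/- embryos. The core proteins Nop56 and Nop58 of the same particles differed from each other in side. Nop56 was at 12.73 and 12.67 in wt and 12.45 and 12.44 in Gcnf-/- embryos (-0.25 ± 0.07). Nop58 was at 11.69 and 11.76 against 11.79 and 11.73 (0.03 ± 0.07), the single member whose genotypes overlapped. Of the box H/ACA particles, which guide pseudouridylation, the pseudouridine synthase Dkc1 differed by -0.23, Nhp2 by -0.22 and Gar1 by -0.14.

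All 7 genes of the small subunit processome lay below wt, with a median of -0.26 and a narrow spread within each genotype (median gap 0.04 in wt and 0.03 in Gcnf-/- embryos). Rrp12, a factor of the maturation and export of the subunits, read 9.56 and 9.53 in wt and 8.90 and 8.88 in Gcnf-/- embryos. The pairs of embryos lay close together and the genotypes far apart, at -0.65 ± 0.07 or 1.57-fold lower. Utp20, a large scaffold protein of the processome, stood at 11.03 and 10.95 in wt against 10.51 and 10.52 (-0.48 ± 0.07). Heatr1, the counterpart of yeast Utp10 that also serves transcription by RNA polymerase I, stood at 10.79 and 10.86 against 10.32 and 10.36 (-0.48 ± 0.07). Its second probe set gave -0.45, while a dim one at about 6 gave -0.08 with overlapping genotypes. Wdr75 (-0.26), Wdr43 (-0.24), Nop14 (-0.23) and Rrp9 (-0.19), the last a protein of the U3 snoRNP, completed the group.

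Genes for the assembly of the large subunit also lay below wt in 7 of 7 cases, with a median of -0.30. Nop2, a methyltransferase of 28S ribosomal RNA, read 10.86 and 10.67 in wt and 10.29 and 10.31 in Gcnf-/- embryos (-0.47 ± 0.09). Its wt embryos lay 0.19 apart, and the lower of them was still above both Gcnf-/- embryos. The 3 proteins of the PeBoW complex, Pes1, Bop1 and Wdr12, which process the 28S part of the precursor, differed by -0.30 ± 0.07, -0.36 ± 0.08 and -0.27 ± 0.07. Bop1 showed the widest gap between Gcnf-/- embryos of the 3 genes, at 10.14 and 10.31 against 10.57 and 10.59 in wt, and Wdr12 had 11.02 in both Gcnf-/- embryos. Rrs1, which brings the 5S particle into the large subunit, stood at -0.36 and the nucleolar protein Nop16 at -0.21. Noc2l read 10.27 and 10.30 in wt and 10.25 and 10.06 in Gcnf-/- embryos. Only a step of 0.03 separated the groups of Noc2l, less than the 0.19 between its Gcnf-/- embryos.

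Of the genes for RNA polymerase I transcription, all 4 lay below wt, and they differed widely among themselves. Rrn3, the initiation factor that brings the polymerase to the promoter, read 10.52 and 10.30 in wt and 9.84 and 9.90 in Gcnf-/- embryos. It was 1.45-fold lower (-0.54 ± 0.10), although its wt embryos lay 0.22 apart. The second largest subunit Polr1b differed by -0.30 and the upstream binding factor Ubtf by -0.19. The largest subunit, Polr1a, read 10.38 in both wt embryos and 10.25 and 10.34 in Gcnf-/- embryos (-0.09 ± 0.07), a separation of 0.04. Its 4 other probe sets stood at 0.00, 0.01, -0.13 and 0.20, so that Polr1a had no common side, and its mean over the probe sets was -0.0004.

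The members with an E-box in the promoter had a median difference of -0.39 (6 genes, -0.54 in Rrn3 to -0.24 in Wdr43), and the 20 with a promoter but no E-box had -0.22 (-0.72 to 0.25). The ranges overlapped, since Ddx21 and Nolc1 held no canonical E-box, and the difference was not tested. All members were chosen on the genotype contrast, so nothing was read from this split. It also leaves out the 7 members without a promoter entry.

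Probe sets of a gene mostly gave the same side. Of the 67, 60 lay below wt, in 53 of them with genotypes that did not overlap, and 3 were higher without overlap. Over all genes, each read from its brightest probe set, these orders held in 30.4% and 26.2%. The members were chosen on this contrast, and nothing was read from the counts of probe sets. Of the 22 genes with more than 1 probe set 19 had them all on the same side, and Dkc1, Mycn and Polr1a did not. The widest range within a gene was 0.55, in Ncl. Its 5 probe sets stood at -0.17 in the brightest, -0.02, -0.56, -0.26 and -0.44. The probe set at -0.02 read 12.60 and 12.69 in wt and 12.66 and 12.59 in Gcnf-/- embryos and overlapped, while that at -0.56 read 11.43 and 11.38 against 10.84 and 10.84. How large the difference of Ncl was thus depended on the probe set, and the mean of the 5 was -0.29. The 34 probe sets that did not stand for their gene had a median of -0.24.

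**Figure D2:**
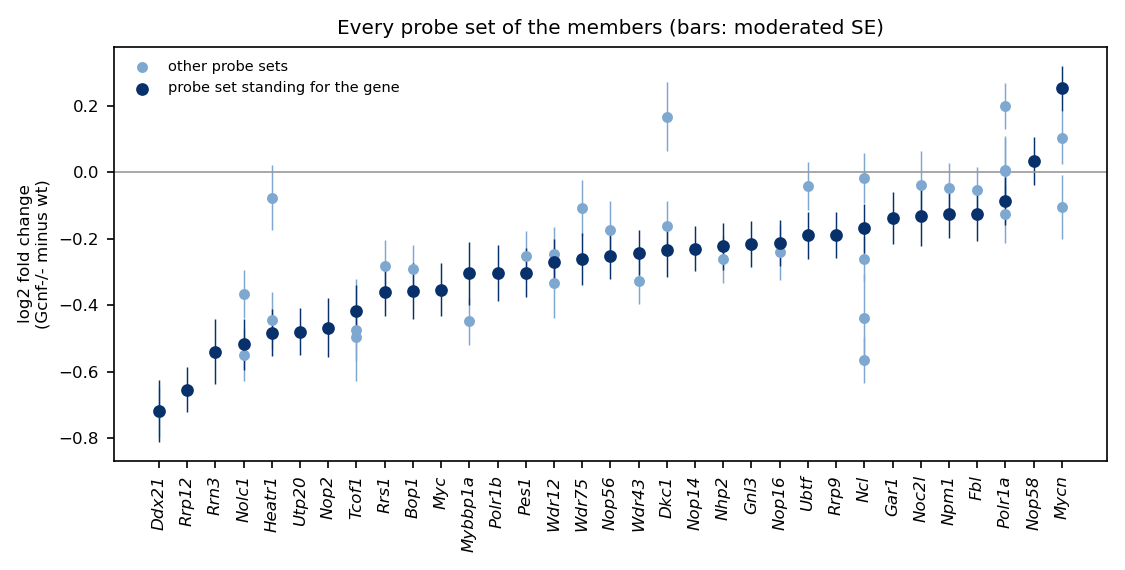
Log2 difference between Gcnf-/- and wt embryos (vertical axis) of all 67 probe sets of the 33 genes, ordered by the probe set that stands for the gene (dark blue), with the other probe sets in light blue. Bars are the moderated standard error of limma. The probe sets of Ncl spread from -0.56 to -0.02, and those of Dkc1, Polr1a and Mycn lie on both sides of 0.

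Myc and Mycn lay on opposite sides of wt. Myc read 9.92 and 9.96 in wt and 9.65 and 9.52 in Gcnf-/- embryos, 1.28-fold lower (-0.35 ± 0.08). Mycn, the family member known for its wide expression in early embryos and the developing nervous system, read 11.43 and 11.38 in wt and 11.65 and 11.66 in Gcnf-/- embryos, 1.19-fold higher (0.25 ± 0.07). Neither pair of groups overlapped. For Mycn this rests on the brightest of 3 probe sets, the others being at 0.10 and -0.10 (7.89 and 7.86 against 7.65 and 7.88, overlapping), and its mean over the probe sets was 0.08. Myc had a single probe set.

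The partners and antagonists of Myc were not used in choosing the 33 genes and were tested, although their list was made with earlier results of these arrays known. Of 17 measured 11 lay below wt and 6 above, with a median of -0.03. Mxi1, which competes with Myc for Max and represses its targets, read 8.92 and 9.11 in wt and 9.86 and 9.83 in Gcnf-/- embryos and rose 1.78-fold (0.83 ± 0.09, limma adjusted p = 0.0397). Mlxipl, a glucose-responsive factor that pairs with Mlx, stood at 0.81 ± 0.16 (adjusted p = 0.0931) and Mxd4, another repressor that pairs with Max, at 0.41 ± 0.09 (adjusted p = 0.108). Both had Gcnf-/- embryos above both wt embryos and missed the threshold. The ubiquitin ligase Huwe1 stood at -0.28 (adjusted p = 0.132), and Max itself, named for its role, at -0.03 with overlapping genotypes.

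**Figure D3:**
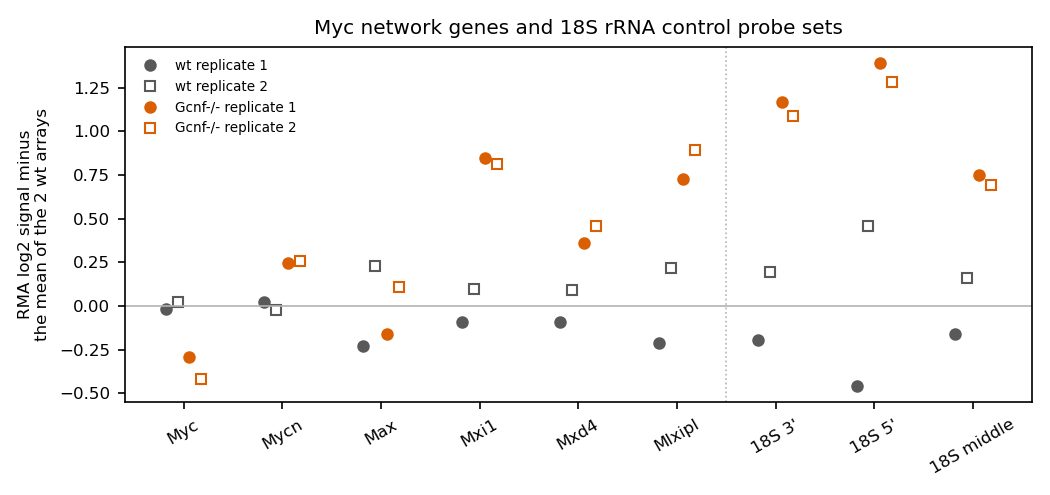
Signal of each embryo minus the mean of the 2 wt embryos (vertical axis, RMA log2 units) for Myc, Mycn, Max and 3 other genes of the Myc network, and, right of the dotted line, for the 3 control probe sets for 18S ribosomal RNA. Filled circles mark replicate 1 and open squares replicate 2 of wt (grey) and Gcnf-/- (orange). Myc is lower and Mycn higher in Gcnf-/- embryos, Max overlaps, Mxi1 is higher by 0.83, and wt replicate 1 is the lowest array for 18S.

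The other genes of the pathway, which the choice of the 33 did not use, mostly lay below wt as well, but few passed the test. Their lists were, however, made with earlier results of these arrays known. Of 174 measured genes in 7 lists (191 symbols listed, older names of the same gene included), 149 lay below wt and 25 above, with a median of -0.16. Gcnf-/- embryos were both below wt embryos in 121 (69.5%, against 30.4% of all genes) and both above in 18. In limma 2 fell and 1 rose at the adjusted p of 0.05, against 0.374% and 1.02% of all genes, and 0 reached a 2-fold change. At an unadjusted p of 0.05, 77 were lower and 9 higher, against 11.9% of all genes each. In the 5 lists of nucleolar and exosome genes 116 of 127 lay below wt, with a median of -0.20.

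The genes that fell were in the list of the small subunit processome, in which 37 of 40 lay below wt with a median of -0.23. Nat10, the acetyltransferase of 18S ribosomal RNA, read 9.96 in both wt embryos and 9.35 and 9.36 in Gcnf-/- embryos and fell by 0.61 ± 0.07 (limma adjusted p = 0.0405). Nol10, a nucleolar protein of the processome, read 7.79 and 7.81 against 7.15 and 7.25 and fell by 0.60 ± 0.07 (adjusted p = 0.0458). The calls rested on all 4 arrays. Without any 1 of them Nat10, Nol10 and Mxi1 kept their side but missed the threshold, with adjusted p-values of 0.114 to 0.301. Averaged over its 2 probe sets, Nat10 stood at -0.25, so that its dimmer probe set lay above wt and the call rests on the brighter. Mxi1 also had 2 probe sets, and its call rests on the brighter. The processome genes Sdad1 (-0.46, adjusted p = 0.0729) and Mphosph10 (-0.35, adjusted p = 0.0899) followed.

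In the list of large subunit assembly 42 of 45 genes lay below wt, with a median of -0.23, and 0 passed the adjusted p while 26 of the 45 were lower at an unadjusted p of 0.05 in limma (11.9% of all genes). The AAA ATPase Mdn1, which strips assembly factors from the large subunit, read 10.59 and 10.67 in wt and 10.10 and 10.09 in Gcnf-/- embryos (-0.54 ± 0.07, adjusted p = 0.0507). Nol8 (-0.59, adjusted p = 0.0524), Noc3l (-0.48, adjusted p = 0.0566) and the polynucleotide kinase Nol9 (-0.48, adjusted p = 0.0678) followed. In each of these 4 genes the genotypes did not overlap.

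Genes of RNA polymerase I transcription other than the members lay below wt in 14 of 16 cases, with a median of -0.11 and 0 at the adjusted p (6 of 16 lower at an unadjusted p of 0.05 in limma, as 11.9% of all genes were). The polymerase subunit Polr1e stood at -0.51 ± 0.07 (9.43 and 9.47 against 8.97 and 8.92, adjusted p = 0.0542), topoisomerase Top1 at -0.34, the subunit Polr2h, shared by all nuclear polymerases, at -0.31 and Polr1d at -0.22. Of the snoRNP and ribosomal RNA-modifying genes 13 of 14 lay below wt, with a median of -0.11, 0 at the adjusted p and 4 of 14 lower at the unadjusted one (11.9% of all genes). Znhit6, an assembly factor of box C/D particles, stood at -0.44 (adjusted p = 0.104), and Ruvbl1, Znhit3 and Nufip1, which act in the same assembly, at -0.23, -0.21 and -0.20. The exosome, which trims the 3′ ends of ribosomal RNA, had 10 of 12 genes below wt, with a median of -0.16, 0 at the adjusted p and 4 of 12 lower at the unadjusted one (11.9% of all genes). These were Exosc1 (-0.37, adjusted p = 0.0837), the nuclease Dis3 (-0.32), Exosc8 (-0.31) and Exosc2 (-0.28).

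Known Myc targets mostly from outside the nucleolus, which serve growth and nucleotide synthesis, stood on both sides of wt, with more of them below. Without overlap, 17 (56.7%) were lower and 6 higher, against 30.4% and 26.2% of all genes. Of 30 measured 22 lay below wt and 8 above, with a median of -0.05 and 0 at the adjusted p, and 8 were lower and 4 higher at an unadjusted p of 0.05 in limma, against 11.9% of all genes each. Spermidine synthase (Srm) stood at -0.33 ± 0.07 (13.11 and 13.05 against 12.74 and 12.76, adjusted p = 0.101) and Cad, the enzyme that starts pyrimidine synthesis, at -0.49 ± 0.11 (adjusted p = 0.114). The purine synthesis enzymes Gart and Ppat stood at -0.33 (adjusted p = 0.111) and -0.30 (adjusted p = 0.112).

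Genes for the ribosomal proteins themselves stood on both sides of wt. Of 42 measured cytosolic ribosomal protein genes 17 lay below wt and 25 above, with a median of 0.01. Of 75 mitochondrial ones 46 lay below wt and 29 above, with a median of -0.06. Without overlap, 39 of the mitochondrial ones (52%) were lower and 15 higher, and of the cytosolic ones 12 (28.6%) and 14, against 30.4% and 26.2% of all genes. The cytosolic ones had median log2 signals of 14.52 to 14.55, against 11.07 to 11.43 for the members. Whether their signal level limited their differences was not tested. In limma 0 of either passed the adjusted p, while 1 cytosolic and 11 mitochondrial ones were lower at an unadjusted p of 0.05, as 11.9% of all genes were. Ribosomal proteins and Npm1 have many processed pseudogenes, whose transcripts such probes could also bind.

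**Figure D4:**
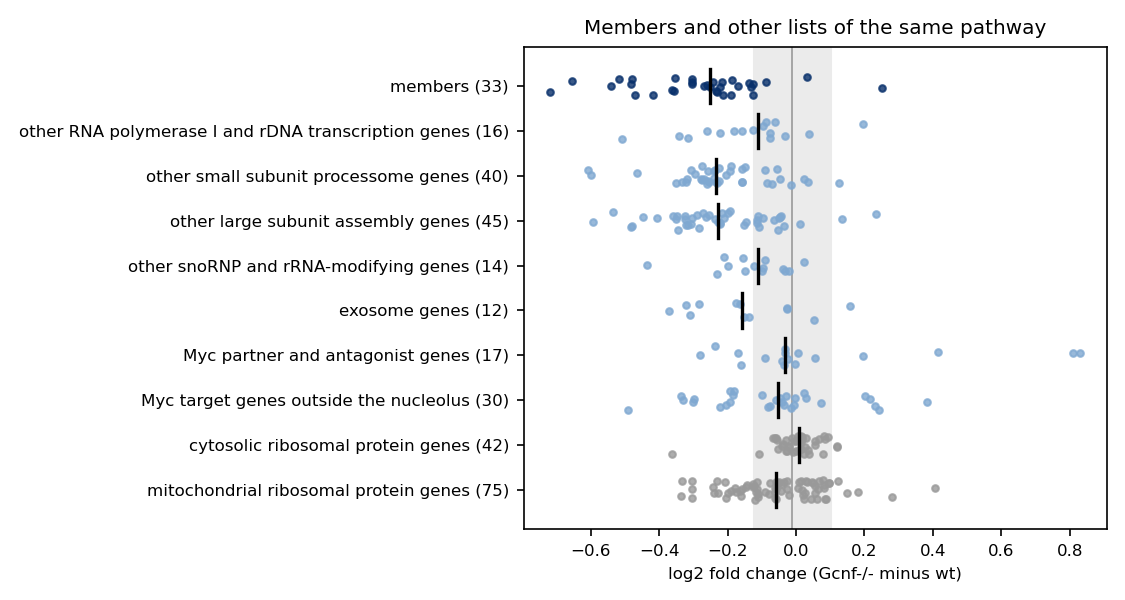
Log2 difference between Gcnf-/- and wt embryos (horizontal axis), 1 point per gene, for the 33 members (top), 7 lists of other genes of the pathway and the ribosomal protein genes, with the number measured in parentheses. Black bars are medians, the grey line is the median of all 18193 genes (-0.01) and the grey band holds their middle 50%, from -0.12 to 0.10. The medians of the members, the small subunit processome (-0.23), large subunit assembly (-0.23) and exosome (-0.16) lie left of the band, and that of the cytosolic ribosomal proteins (0.01) lies inside it.

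How many genes passed depended on how limma shared the spread between probe sets. With a spread that follows the signal intensity, 52 of the 174 genes (29.9%) fell and 5 rose, against 4.16% and 4.64% of all genes, and 20 of the 52 were in the list of large subunit assembly and 14 in that of the processome. The list of Myc targets had 7 of 30 lower (23.3%) and 2 higher. In the same fit 1 of 42 cytosolic ribosomal protein genes, which read far brighter than the members, fell. Of 75 mitochondrial ones 7 fell (9.33%) and 2 rose. Among bright probe sets alone 39 of 172 (22.7%) fell and 3 rose, against 5.52% and 6.52% of all genes. The members, chosen on this contrast, numbered 17 lower and 1 higher with the trend, 13 lower and 0 higher among bright probe sets and 1 lower (Rrp12) in the first fit, counts from which nothing was read. Lists were chosen with earlier results of these arrays known, and no list was tested as a set.

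Other values moved with genotype too. Among the markers of early embryo tissues the endoderm and endothelial factor Sox17 rose 2.74-fold (9.05 and 9.39 in wt, 10.56 and 10.79 in Gcnf-/- embryos, limma adjusted p = 0.0338). The paraxial mesoderm factor Tbx6 stood at 0.71, while the neural crest factor Sox10 (-0.65) and the somite and mesoderm factors Meox1 (-0.62), Foxc2 (-0.62) and Tcf15 (-0.37) stood below wt. The somite and neural crest factor Pax3 (0.22) and the heart genes Myl7 (0.41), Tbx5 (0.34) and Nkx2-5 (0.31) stood above wt. The genotypes did not overlap in any of these genes. Over the 18 measured markers, 5 were lower without overlap and 9 higher, against 30.4% and 26.2% of all genes. The list's summed log2 signals, 171.0 and 171.7 in wt and 172.7 and 172.8 in Gcnf-/- embryos, hide such opposite differences. Of 8 markers of primitive red cells 7 were measured and 7 lay above wt, in 6 without overlap, with a median of 0.26 and summed log2 signals of 84.1 and 85.3 in wt and 87.9 and 87.0 in Gcnf-/- embryos. Alas2, which starts haem synthesis in red cells, had the largest difference of them (0.98), while the embryonic globin Hbb-bh1 stood at 0.15. Markers of yolk sac endoderm lay below wt in 7 of 9 cases, with sums of 119.4 and 118.4 against 118.1 and 117.0. Macrophage markers lay below wt in 6 of 8, with sums of 51.5 and 51.1 against 49.0 and 48.6. Most of that drop lay in the Fc receptor gene Fcgr3, which read 8.64 and 8.63 in wt and 7.36 and 6.97 in Gcnf-/- embryos (fell by 1.47 ± 0.14, limma adjusted p = 0.0305). The medians of the macrophage list, 5.77 to 6.04, were under the brightness limit of 6.84. Of 9 markers of trophoblast and decidua 5 were measured, with median log2 signals of 4.97 to 5.73, also under that limit. RMA signals have no true 0, so that no marker can be called absent. The part of these cell types and of the array controls in the differences of the 33 genes was not tested. Without wt replicate 1, the female embryo with the lowest 18S and spike signals, 32 of 33 members lay below wt, with a median of -0.25. With all 4 arrays 31 did, as 52.8% of all genes did. The members were chosen on this contrast, and nothing was read from these counts.

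Many nucleolar genes carry snoRNA genes in their introns, which are released when the host is spliced. In the RefSeq annotation, 6 of the 33 members (18.2%) span 18 snoRNA genes on either strand, against 1.70% of 21900 protein-coding genes. Nop56 holds 5 of them, Nop58 4, Gnl3 and Wdr43 3 each, Ncl 2 and Dkc1 1. These hosts differed from -0.25 to 0.03, and the array values given here are those of the host transcripts only. The members lie on 19 chromosomes.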

How the data were processed

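RNA of each whole embryo was measured on 1 array. The authors deposited log2 signals, made with RMA (version not given in the sources used here), which makes the distributions of arrays alike and so hides any shift common to most transcripts. Of 45101 probe sets 64 controls were left out, and 45037 were fitted by genotype alone (limma 3.58.1, R 4.3.3; lmFit, then eBayes), with p-values adjusted over all 45037 after Benjamini and Hochberg. Calls used an adjusted p of 0.05, with or without a 2-fold change. The standard error is limma's, moderated by a prior SD of 0.0849 with 3.16 degrees of freedom, because 2 embryos a group allow no exact permutation p under 0.333. The number of arrays limits the precision.

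In the platform annotation 34945 probe sets carried 1 symbol, 932 several and 9160 none, and 99.4% of the first kind matched RefSeq genes (GRCm38.p6). This left 18193 genes, each read from its brightest probe set. Members and lists were chosen with earlier results of these data known. Named are all members, the 4 genes of each pathway list with the smallest p, genes of these lists called with the fold threshold (there were 0), Nr6a1, and sex and control probe sets. Markers and Max were named after their values were seen. Of the 191 listed pathway symbols 17 had no probe set of their own. Replicates were taken as separate embryos, as the methods say that each whole embryo was extracted, and no source gives litter or somite number. Motifs were counted in the letters of RefSeq promoters, and 7 members had no entry. Alternatives were the replicate block, each array left out, bright probe sets only, repeated quantile normalisation, median centring, an intensity trend or robust eBayes, treat, and other choices of probe set.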

Additional observations from a re-analysis of the deposited data

How the results depend on the processing

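In the 7 alternative settings that can move a fold change and were followed gene by gene, the 33 members kept their side of wildtype. The exception was Nop58 without wt replicate 1 (-0.0034), and Polr1a was at -0.0004 with its probe sets averaged. Leaving out probe sets of shared sequence or taking that with the lowest p can also move a fold change, but was not followed for each member. An intensity trend, robust eBayes and the brightness filter leave fold changes as they are. The median of the members ranged from -0.2577 to -0.2224 over the fits that left out 1 array, and it was -0.2860 without probe sets marked for shared sequence, which 28 members had. The median of the pathway genes, -0.1585 as reported, ranged from -0.1810 to -0.1403 without 1 array and was -0.1803 with median centring, -0.1332 when the probe sets of a gene were averaged and -0.1836 without shared sequence. The median difference over all fitted probe sets was -0.0318 after centring and -0.0108 after repeated quantile normalisation. The 18S difference ranged from 0.7912 to 1.3324 without 1 array.

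Counts of calls moved with the setting. With the replicate number as a block, 0 probe sets passed in limma, lower or higher, with or without the fold threshold, and 0 pathway genes (8358 probe sets at an unadjusted p of 0.05, 9046 without the block). Samples of the same number did not deviate together (correlation 0.06), so the numbers were not taken as pairs. Without 1 array, 0 to 2 probe sets were called lower and 0 to 7 higher, with or without the fold threshold, in place of 35 and 137 or 115 and 324, and 0 pathway genes passed in either direction (5241 to 7244 probe sets at an unadjusted p of 0.05). At the adjusted p alone, bright probe sets gave 1128 lower and 1269 higher and 39 and 3 pathway genes, repeated quantile normalisation 269 and 555 with 6 pathway genes lower, median centring 217 lower with 6 pathway genes lower, and the intensity trend 1245 and 1449 with 52 and 5 pathway genes. The trend called 61 probe sets lower with the fold threshold, treat at 1.2-fold called 20 lower and 87 higher, and the lowest-p probe set per gene gave 4 pathway genes lower. Robust eBayes kept the counts of pathway genes. The causes were not tested, apart from fewer arrays or fewer probe sets in the fit.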
